A study of Rattus norvegicus with 2 samples.

Results

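Neutrophils of the rat lung were picked out of 2 single-cell libraries by the genes they expressed. A barcode was taken as a neutrophil when it had at least 200 genes, when at least 3 of the 8 genes S100a8, S100a9, Csf3r, Cxcr2, Mmp8, Mmp9, Il1r2 and G0s2 had a unique molecular identifier (UMI, 1 counted RNA molecule), when these 8 together held at least 0.5% of the barcode's UMIs, and when Treml4, Pou2f2, Fcnb and Vcan, which mark monocytes, had none. This gate took 341 of the 33759 barcodes in both libraries, 331 of them from the control library and 10 from the explosion library. The gate reads the expression values themselves, so the levels of its 8 genes are a description of the choice.

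The libraries came from the lungs of rats kept under specific-pathogen-free conditions and either exposed to a gas explosion or left unexposed, the latter serving as control. The labels give no strain, age, number of animals per library or time between blast and sampling. The tissue was digested with collagenase IV, papain and DNase I, red cells were lysed and dead cells were taken out on beads, and the suspension was run on a 10x Chromium 3′ v3 chip. Each group had 1 library, so no difference between them has a replicate check, no test was made and no p-value is given. All intervals are at the 95% level and cover counting error only.

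Neutrophils are short-lived granulocytes made in the bone marrow. They are drawn into tissue along gradients of chemokines, complement fragments and lipid mediators, which they read through receptors such as Cxcr2, and the lung's capillaries hold a large pool of them at rest. Their granules are filled in order while they mature, first with azurophil proteins such as myeloperoxidase, then with specific and gelatinase granule proteins. Mature cells therefore carry little granule mRNA, and they hold less RNA than most other cells of the lung.

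The gated cells were shallow. Depth in the 331 control cells ran from 500 to 27711 UMIs. The median cell held 821 UMIs over 458 genes, while the median of the other control barcodes was 4990 over 1849. Their UMIs summed to 600950. A minority was far deeper: 61 cells had over 2000 UMIs and held 63.4% of the summed UMIs. Of these 61, 40 were called doublets and 54 had UMIs of at least 3 markers of 1 other cell type. Markers were counted at full depth, so a deep cell reaches 3 more readily, and over all 331 cells 90 did. The marker lists include the airway gene Scgb1a1, which had a UMI in all 331. Over all control cells of the gate 49 (14.8%) were called doublets, against 1775 barcodes (8.41%) of the whole control library. Results are therefore also given for the 270 cells with up to 2000 UMIs, which had medians of 771 UMIs and 431.5 genes, a division chosen after the depths were seen.

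Depth also differed between the libraries. The control library held 139486248 UMIs over 21117 barcodes, with a median of 4917 per barcode, and the explosion library 9017416 over 12642, with a median of 538.5. No control barcode was below 500 UMIs, whereas 5897 explosion barcodes were, down to 231. The libraries shared 85 barcode sequences, and 0 of the gated cells had one of them.

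S100a8 and S100a9, which together form calprotectin, the most abundant protein of the neutrophil cytosol, carried the gate. S100a9 had 20885 UMIs and was found in all 331 control cells, and S100a8 had 8306 UMIs in 321. G0s2, an inhibitor of triglyceride breakdown, had 3033 UMIs in 312 cells. These 3 genes were the ones seen in nearly every cell. The receptors were sparse: Csf3r, the receptor of granulocyte colony-stimulating factor, had 156 UMIs in 120 cells, the decoy interleukin 1 receptor Il1r2 had 103 in 86, and the chemokine receptor Cxcr2 had 39 in 37. The collagenase Mmp8 had 151 UMIs in 80 cells and the gelatinase Mmp9 had 41 in 23. With the 8 genes counted per cell, 116 cells had 3 of them, 133 had 4, 66 had 5, 13 had 6, 2 had 7 and 1 had all 8.

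The 8 genes took a median of 7.91% of a control cell's UMIs, with a range from 0.514% to 42.3%. Among cells with exactly 3 gate genes the median was 7.19%, and 29 control barcodes just outside, with 2 gate genes and a share that passed, had a median of 1.51%. A further 113 control barcodes had 3 or more of the genes but a share under 0.5%. Their median depth was 9638 UMIs and their highest share 0.478%. The 4 monocyte genes kept out 14 control and 4 explosion barcodes that passed otherwise.

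**Figure D1:**
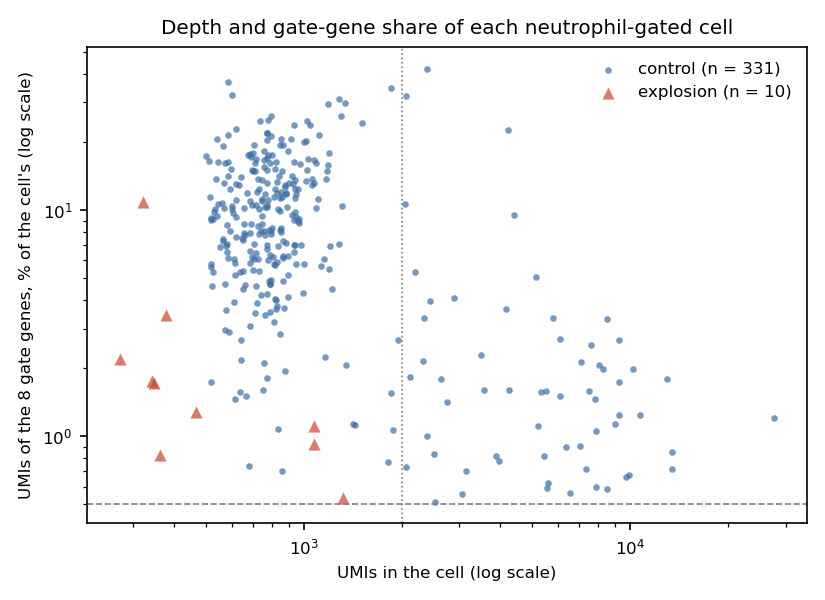
Each point is 1 barcode of the gate, with its UMIs on the x axis (log scale) and the percent of those UMIs held by the 8 gate genes on the y axis (log scale). Most control cells lie under 2000 UMIs with several percent of their UMIs in the gate genes, while the 61 deeper cells spread to lower shares, and the 10 explosion cells lie at 272 to 1317 UMIs. The dashed line is the gate's 0.5% and the dotted line 2000 UMIs.

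To compare cells of unlike depth, every barcode was thinned at random to 500 UMIs, and a share is then the percent of thinned cells with at least 1 UMI of a gene. All 331 control cells had enough UMIs for this. The 4 other sets of control barcodes thinned alike were 87 with both Fcnb and Vcan, marking classical monocytes (median 3097 UMIs), 348 with both Treml4 and Pou2f2, marking nonclassical monocytes (1957.5), 1000 of the 8907 with at least 4 of 8 alveolar macrophage markers (6789), and 1005 with at least 2 of 5 B cell markers (1347). B cells lack most of the genes described here, so their share gives the level that free RNA and stray counts reach. A share of 0 allows up to 3.45% in the classical and 0.862% in the nonclassical monocytes, 0.3% in the macrophages and 0.299% in the B cells, at 3 cells each. For S100a9 the B cell share was 1.19% against 99.1% of the neutrophils, and for S100a8 0.796% against 91.2%. For G0s2 it was 4.48%, and nonclassical monocytes reached 48.3%, so that gene was not limited to the gated cells. S100a9, S100a8 and G0s2 are gate genes, so their neutrophil shares describe the choice. Gated barcodes were left out of the other sets, so the B cell shares of gate genes can be too low. In the control library 6 barcodes with B cell markers passed the gate's 3 genes and 0.5%.

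Genes that the gate did not use were then read. A rule took the 24 genes with the highest ratio of CPM (a gene's UMIs divided by all UMIs of the set, times 1000000) in the control cells over the other control barcodes. A control cell had a UMI of a median of 9 of these 24, with a range from 0 to 17, against medians of 2 in nonclassical and 3 in classical monocytes and 1 in B cells. These sets were compared at their own depths, and the neutrophils were the shallowest of them. Because the ratio chose the 24 genes, their ratios are a description of the choice and support nothing further.

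**Figure D2:**
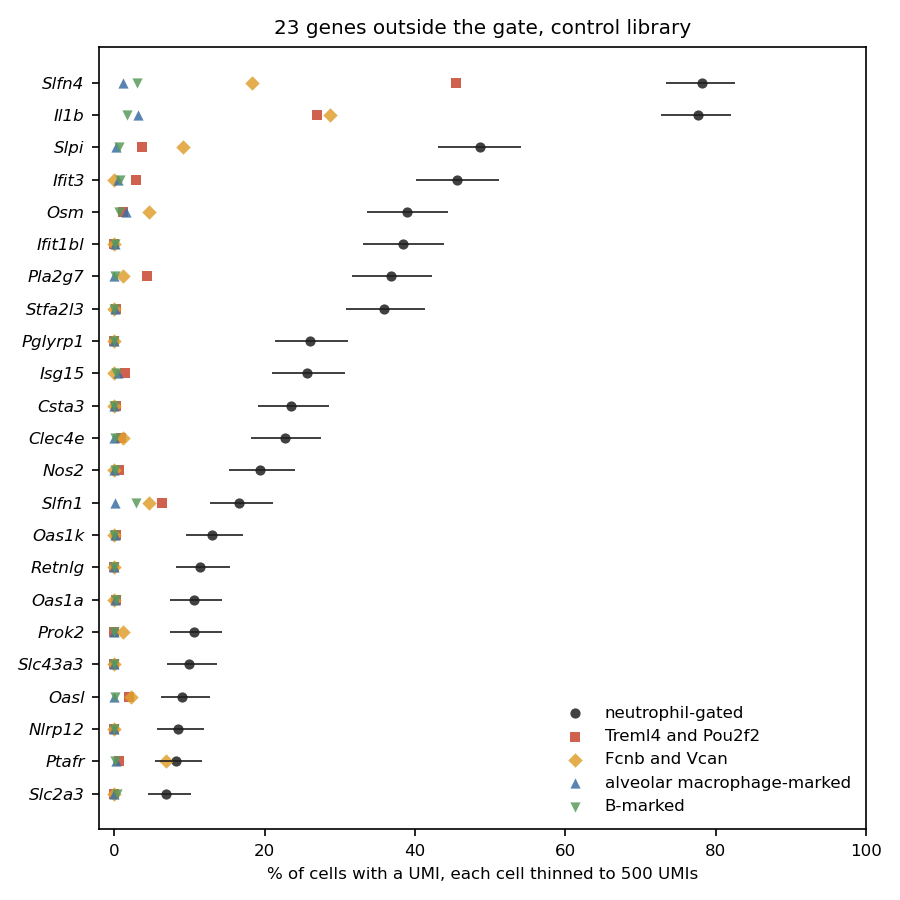
For 23 of the 24 genes outside the gate with the highest ratio over other control barcodes, the plot gives the percent of control barcodes with a UMI after thinning to 500 UMIs, for the 331 neutrophils (black, with exact binomial 95% intervals as bars) and for the comparison sets. Slfn4 and Il1b were found in over 3 in 4 neutrophils, while Retnlg, Pglyrp1 and the stefins were at or near 0 in every other set.

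Among the 24 genes the 5 highest ratios were those of Stfa2l3, Retnlg, Nlrp12, Csta3 and Pglyrp1. Stfa2l3, a stefin that inhibits cysteine proteases, had 1637 UMIs (2724 CPM) and was found in 36.0% of thinned neutrophils (30.8 to 41.4). It was found in 0.287% of nonclassical monocytes and in 0% of classical monocytes and B cells. Its relative Csta3 had 329 UMIs and was found in 23.6%. Pglyrp1, a peptidoglycan-binding protein of the specific granules, had 246 UMIs and was found in 26.0% (21.3 to 31.1) of neutrophils and in 0% of each of the 4 other sets. Retnlg, a resistin-like hormone of myeloid cells, had 455 UMIs, was found in 11.5% and was also at 0% in the 4 other sets.

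The stefins lie in a family of near-identical copies, and how the authors' counting split reads between them is not known, so the single members are uncertain. Summed over the family, the thinned control cells had a mean of 2.99 UMIs per 500, against 0 in classical monocytes and B cells, 0.00862 in nonclassical monocytes and 0.001 in alveolar macrophages. Of the family's other members, Stfa2l2 had 64 UMIs, Stfa2l1 27, Stfa2 12 and Stfa3 5.

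Slpi, an inhibitor of neutrophil elastase, was found in 48.6% of thinned neutrophils (43.1 to 54.2) and in 9.20% of classical and 3.74% of nonclassical monocytes. Clec4e, a receptor for mycobacterial and damaged-cell ligands, was found in 22.7%, Nlrp12, a brake on inflammatory signalling, in 8.46%, and Prok2, a small chemotactic peptide, in 10.6%. Pla2g7, which breaks down platelet-activating factor, was found in 36.9%, against 4.31% of nonclassical monocytes and 0.0995% of B cells. Nos2, the inducible nitric oxide synthase, had 174 UMIs in 97 cells and was found in 19.3% (15.2 to 24), against 0.575% of nonclassical monocytes.

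Lists of genes chosen by function were read against all genes tested. With a gene counted as higher or lower at 2-fold or more, 13.4% of the 5596 genes tested were higher in the control neutrophils than in the other control barcodes and 2.2% were lower, with a median log2 ratio of 0.18. Among the 270 cells with up to 2000 UMIs, 27% of 5273 genes were higher and 22.9% lower. Against nonclassical monocytes, the set nearest in depth among the myeloid ones, 6.91% of 5894 genes were higher and 6.04% lower, and for the cells with up to 2000 UMIs 16.8% of 5518 were higher and 25.7% lower. These counts carry no test, since the gate chose the cells from the same matrix.

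Of 29 neutrophil genes outside the gate, 25 had enough counts, and 17 of them were higher and 1 lower than in the other control barcodes, with a median log2 ratio of 2.2. Against nonclassical monocytes 11 of 24 were higher and 1 lower. Lrg1, a secreted glycoprotein of maturing granulocytes, had 862 UMIs and was found in 68.0% of thinned neutrophils and 3.74% of nonclassical monocytes. Srgn, the proteoglycan core of granules, was 24.7-fold higher than in the other barcodes but 1.82-fold over nonclassical monocytes. Mxd1, a repressor of Myc targets in ending granulocyte division, was 25.8-fold and 14.9-fold higher. In the cells with up to 2000 UMIs 17 of 24 were higher than in the other barcodes and 4 lower. S100a6 and S100a11, calcium-binding proteins of many cell types, had ratios of 0.875 and 1.17 over the other barcodes, and 0.426 and 0.790 in the cells with up to 2000 UMIs.

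Granule genes were uneven. The azurophil genes Mpo, Ctsg, Prtn3, Bpi and Ms4a3 had 0 UMIs in the 331 cells, which allows up to 4.99 CPM each, and Elane, neutrophil elastase, had 11 UMIs in 10 cells. Ctsc, the protease that activates the azurophil serine proteases, had 72 UMIs in 57 cells. In the cells with up to 2000 UMIs both azurophil genes tested, Elane and Ctsc, were higher than in the other barcodes. Among specific granule genes Ltf, lactoferrin, had 0 UMIs, Lcn2, lipocalin 2, had 4 in 2 cells, and Ngp, a marrow-stage granule protein, had 75, all of them in 2 cells. Camp, the cathelicidin antimicrobial peptide, had 193 UMIs in 46 cells, and Cd177, a surface protein of a neutrophil subset, 18 in 7. Slpi and Pglyrp1, described above, belong to the same list. Of the 8 specific granule genes tested, 4 were higher and 0 lower than in the other barcodes, and in the cells with up to 2000 UMIs 4 were higher and 1 lower.

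Of 6 genes of the NADPH oxidase, which makes superoxide, 1 was higher than in the other barcodes, Ncf4, at 5.69-fold, and 0 were lower. Over all genes tested, 13.4% were higher and 2.2% lower, so this count was near that of genes at large. Against nonclassical monocytes 2 of the 6 were higher and 0 lower, Ncf1 at 2.64-fold and Ncf4 at 2.61-fold. Cybb, the oxidase's membrane core, had a ratio of 0.920, which was 0.289 in the cells with up to 2000 UMIs. Of 15 adhesion and migration genes 3 were higher and 0 lower, and these included Selplg, the ligand of P-selectin, at 3.01-fold, and Coro1a, an actin-binding protein, at 2.42-fold. Against nonclassical monocytes 1 of 17 was higher and 3 were lower, among them Itga4, an integrin chain, at 0.227 times their level. Itgam, at 0.503 times, fell just short of the 2-fold cut.

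Receptors for chemoattractants and growth factors stood higher almost throughout. Of 13 tested, 11 were higher and 0 lower than in the other control barcodes, with a median log2 ratio of 1.32, and all 13 were higher in the cells with up to 2000 UMIs. Against nonclassical monocytes 6 of 15 were higher and 2 lower. Ptafr, the receptor of platelet-activating factor, had 55 UMIs and was 34.8-fold higher (25.7 to 46.3), and Ltb4r, the receptor of leukotriene B4, had 36 and was 55.8-fold higher. Cxcr4, which holds granulocytes in the marrow and marks aged cells, was 6.71-fold higher than in the other barcodes and had a ratio of 0.698 (0.583 to 0.832) over nonclassical monocytes. C5ar1, the receptor of the complement fragment C5a, was 3.03-fold higher, and Il17ra, the interleukin 17 receptor, 2.50-fold. The formyl peptide receptor Fpr1 had 8 UMIs, too few to describe, and Cxcr1 had 13.

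Among 12 pattern and Fc receptor genes tested, 6 were higher and 0 lower than in the other barcodes. Besides Clec4e these included Tlr2, which senses bacterial lipoproteins, at 9.66-fold, and Lilrb4, an inhibitory receptor, at 5.65-fold. Tyrobp, the signalling adaptor of many myeloid receptors, was 2.29-fold higher (2.21 to 2.37) and Fcer1g, the shared Fc receptor chain, had a ratio of 1.75. Fcgr3a, a low-affinity IgG receptor, had a ratio of 0.867, and Tlr4, the endotoxin receptor, had 0 UMIs.

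Cytokine genes included some of the highest-ratio genes of the set. Of 14 tested, 9 were higher and 2 lower than in the other barcodes, with a median log2 ratio of 1.51, and against nonclassical monocytes 7 were higher and 2 lower. Il1b, the secreted pyrogen that recruits further leukocytes, had 2261 UMIs (3762 CPM) and was 60.3-fold higher (57.6 to 63.2). It was found in 77.6% of thinned neutrophils (72.8 to 82.0), 28.7% of classical and 27.0% of nonclassical monocytes, 3.20% of alveolar macrophages and 1.69% of B cells. Osm, oncostatin M, a cytokine of the interleukin 6 family, was found in 39.0% (33.7 to 44.5) and in 4.60% of classical monocytes.

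Cxcl2, a chemokine that itself binds Cxcr2, had 1240 UMIs in 215 cells and was found in 51.1% of thinned neutrophils and 5.46% of nonclassical monocytes. Il1rn, which blocks the interleukin 1 receptor, was 2.92-fold higher, Ccl3, a chemokine for monocytes and lymphocytes, 2.75-fold, and Csf1, the macrophage growth factor, 20.5-fold with 54 UMIs. Tnf had 14 UMIs and a ratio of 1.15, Cxcl3 was at 0.167 times the level of the other barcodes, and Il6 and Cxcl6 had 0 UMIs. Il18, stored as a precursor in macrophages and epithelium, had a ratio of 0.785, which was 0.124 in the cells with up to 2000 UMIs. Summed over the list, thinned neutrophils had a mean of 7.51 UMIs per 500, against 2.02 in classical and 1.45 in nonclassical monocytes.

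Interferon-stimulated genes were a further group that stood higher. Of 20 listed genes 12 had enough counts, and 10 of these were higher and 0 lower than in the other control barcodes, with a median log2 ratio of 3.92. In the cells with up to 2000 UMIs 12 of 13 were higher and 1 lower, and against nonclassical monocytes 8 of 12 were higher and 0 lower. These genes block viral replication and are switched on by factors that interferon activates, which bind a short element near the start of transcription. To show that element, the bases before the start of 3 of the genes are given from RefSeq promoters of assembly GRCr8, with the motif GAAANNGAAA or its reverse complement TTTCNNTTTC in capitals, for Ifit3 (chr1:241527206-241527325, plus strand), Irf7 (chr1:205800024-205800143, minus strand) and Oas1a (chr12:41330346-41330465, plus strand).
Ifit3: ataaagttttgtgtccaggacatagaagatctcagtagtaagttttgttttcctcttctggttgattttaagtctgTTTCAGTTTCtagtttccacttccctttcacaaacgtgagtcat
Irf7: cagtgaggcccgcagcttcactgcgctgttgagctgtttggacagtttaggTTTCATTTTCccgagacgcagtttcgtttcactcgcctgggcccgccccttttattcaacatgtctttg
Oas1a: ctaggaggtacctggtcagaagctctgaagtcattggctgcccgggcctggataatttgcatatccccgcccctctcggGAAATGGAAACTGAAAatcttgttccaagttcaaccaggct
In these windows the motif began 44 bases before the start for Ifit3, 69 for Irf7, and 41 and 35 for the overlapping pair of Oas1a. Over the 250 bases before the start, 10 of the 13 listed genes with an entry held the motif on either strand, against 1140 of all 33469 promoters (3.41%). Of the gate genes, 5 had an entry and 0 held it. A match says only that these letters are there.

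Ifit3, an antiviral protein that binds other Ifit proteins, had 610 UMIs (1015 CPM), 123-fold over the other control barcodes (112 to 136). It was found in 45.6% of thinned neutrophils (40.2 to 51.2), 2.87% of nonclassical monocytes, 0.796% of B cells and in 0% of classical monocytes. Isg15, a ubiquitin-like protein coupled to other proteins, was found in 25.7% (21.1 to 30.7), against 1.44% of nonclassical and 0% of classical monocytes. Ifit1bl, a relative of Ifit3 that the list does not hold, was found in 38.4%, against 0% of both monocyte sets. Slfn4, a Schlafen gene of myeloid cells, had 1688 UMIs and was found in 78.2% of neutrophils (73.4 to 82.6) and 45.4% of nonclassical monocytes.

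The Oas, Ifit and Slfn genes have close relatives whose reads the counting could have split, so their single values are uncertain. Oas1a, which senses double-stranded RNA, was 35.8-fold higher with 75 UMIs, Oasl 41.3-fold with 57, and Irf7, the master factor of interferon production, 16.8-fold with 82. Rsad2, viperin, was 83.2-fold higher with 27 UMIs. Ifitm3, a barrier to viral entry found in many cell types, had a ratio of 1.09. Mx1 and Cxcl10 had 5 UMIs each and Mx2 had 0. Summed over the list, thinned neutrophils had a mean of 2.71 UMIs per 500, against 0.241 in classical and 0.491 in nonclassical monocytes, 0.172 in alveolar macrophages and 0.201 in B cells.

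Immediate early genes, which are transcribed within minutes of a stimulus, were higher as well. Of 14 tested 9 were higher and 1 lower than in the other barcodes, with a median log2 ratio of 1.40, and against nonclassical monocytes 2 were higher and 1 lower. In the cells with up to 2000 UMIs 7 of 14 were higher and 2 lower than in nonclassical monocytes. Fos had 3668 UMIs and was 5.46-fold higher over the other barcodes and 2.67-fold over nonclassical monocytes, and Dusp1, a phosphatase that ends kinase signalling, 5.25-fold and 1.95-fold. Jun had ratios of 1.06 and 1.25. Of 11 NF-kB feedback genes 6 were higher and 0 lower than in the other barcodes, while against nonclassical monocytes 1 was higher, Zc3h12a, an RNase that degrades cytokine mRNA, at 2.24-fold, and 2 were lower. In the cells with up to 2000 UMIs this turned to 4 of 12 higher and 0 lower.

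Of 17 transcription factors tested 8 were higher and 0 lower. Junb had 1444 UMIs and was 5.92-fold higher, Cebpb, a factor of emergency granulopoiesis, 2.45-fold and Cebpd 3.04-fold. Cebpe and Gfi1, which drive granule formation in precursors, had 5 and 1 UMIs. Irf8, a factor of monocytes, was at 0.479 times the level of the other barcodes, from too few UMIs to be counted as lower. Of 11 survival genes 5 were higher and 0 lower, among them Mcl1, on whose protein neutrophil survival depends, at 4.22-fold and Fas at 6.74-fold.

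Energy genes followed no such pattern. Over all genes tested, 13.4% were higher and 2.2% lower than in the other barcodes. In the cells with up to 2000 UMIs 27% were higher and 22.9% lower. Counts in this paragraph that lie near these shares say nothing particular about their lists. Of 12 glycolysis genes 2 were higher and 0 lower, and Slc2a3, a high-affinity glucose transporter, was one of them at 63.8-fold with 50 UMIs. Of 30 oxidative phosphorylation genes 0 were higher and 0 lower, with a median log2 ratio of -0.00, and in the cells with up to 2000 UMIs 9 of the 30 were lower with a median of -0.60. Of 5 inflammasome genes 1 was higher and 0 lower, Nlrp3, the sensor that matures interleukin 1 beta, at 7.28-fold with 277 UMIs, and against nonclassical monocytes 1 of 8 was higher and 3 lower. Of 9 lipid mediator genes 1 was higher, Pla2g7, and 0 lower, and in the cells with up to 2000 UMIs 3 were higher and 3 lower. Ptgs2, the inducible prostaglandin synthase, was under the minimum of 20 CPM over all cells, with 13 UMIs and a ratio of 35.8, and was among the 3 higher in the cells with up to 2000 UMIs.

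Markers of other cell types were present in the gated cells and moved with depth. Of the 8 alveolar macrophage markers 1, Marco, had 0 UMIs, and 65.9% of thinned control neutrophils had a UMI of at least 1 of the 8. Their summed level was 4010 CPM, against 3415 CPM in all other control barcodes, and 2500 CPM in the cells with up to 2000 UMIs. Most of it was Chi3l1, a chitinase-like protein, found in 39.3% of neutrophils and only 1.40% of alveolar macrophage-marked barcodes, and Cd9, a tetraspanin, found in 33.2% and 69%. Mrc1, the mannose receptor of macrophages, was found in 7.85% and 47.1%. Monocyte markers were found in 5.14% of thinned neutrophils, dendritic cell markers in 7.25%, T cell markers in 2.11%, B cell markers in 1.51% and eosinophil markers in 1.81%. The monocyte list of 10 genes holds the 4 that the gate requires at 0, so its share was lowered in advance. The airway protein Scgb1a1 held 7.50% of the neutrophils' UMIs and 24.2% of those of the other barcodes. Per 500 UMIs the 4 secretory markers, Scgb1a1 among them, had medians of 32 in neutrophils, 21 in B cells and 15 in nonclassical monocytes. In classical monocytes and alveolar macrophages the medians were 12 and 8.

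The 61 deep cells had fewer UMIs of the gate genes after thinning, with a mean of 16.8 per 500 against 53.3 in the others. At a low share of gate UMIs a shallow cell is less likely to show the 3 genes required. This contrast therefore describes the gate's choice in part. Markers of other types went both ways. T cell markers were found in 6.56% of the deep cells and 1.11% of the others, and fibroblast markers in 8.20% and 2.22%. Type 2 alveolar markers were found in 14.8% and 33.7%, and dendritic cell markers in 4.92% and 7.78%. For the 8 alveolar macrophage markers together the shares were 65.6% and 65.9%. After thinning, Mrc1 was found in 24.6% of the deep cells and 4.07% of the others, and Krt79, another alveolar macrophage marker, in 27.9% and 3.33%. S100a9, a gate gene to which the same limit applies, had a mean of 10.2 UMIs per 500 in the deep cells and 34.4 in the others. Il1b was found in 37.7% and 86.7%, Slfn4 in 26.2% and 90%, and Ifit3 in 6.56% and 54.4%. Chi3l1, also on the alveolar macrophage list, went the other way from Mrc1 and Krt79, at 9.84% and 45.9%. Over the cells with up to 2000 UMIs alone the ratios over the other barcodes were larger, at 136-fold for Il1b, 90.8-fold for Slfn4 and 297-fold for Ifit3. The part of doublets in the deep cells' values was not tested.

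The control neutrophils varied among themselves. In the thinned cells S100a9 had a median of 23 UMIs, with 3 at percentile 10 and 66 at percentile 90, and S100a8 a median of 8 with 25 at percentile 90. The interferon list had a median of 1 UMI per cell and 7 at percentile 90, and 106 cells (32.0%) had none. Stfa2l3 had 0 UMIs in 212 cells and at least 5 in 66, up to 26. Retnlg had 0 in 293 cells and up to 17, and Camp 0 in 305 and up to 15.

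Variance over mean, which is 1 for counts that differ only by sampling, measured this spread. Scgb3a1 (33.2), Scgb1a1 (29.4) and Bpifa1 (29.3) led, all 3 secreted by airway cells and not by neutrophils. Their highest cells lay far above the rest. Bpifa1 had 0 UMIs in 320 cells and a highest count of 37. At percentile 90 Scgb3a1 had 3 UMIs and Scgb1a1 47, with highest counts of 102 and 366. Without the 61 deep cells Bpifa1 (29.9) and Scgb3a1 (26.9) were still above S100a9 (17.2) and S100a8 (10.1), while Scgb1a1 was below both (6.56), and Ccl5 was at 5.46. S100a9 (22.2), S100a8 (12.6), Stfa2l3 (8.82), Retnlg (7.70) and Camp (6.21) were the granulocyte genes among the 10 highest, with the type 2 cell gene Sftpc (11.4) and the chemokine Ccl5 (9.73) between them.

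**Figure D3:**
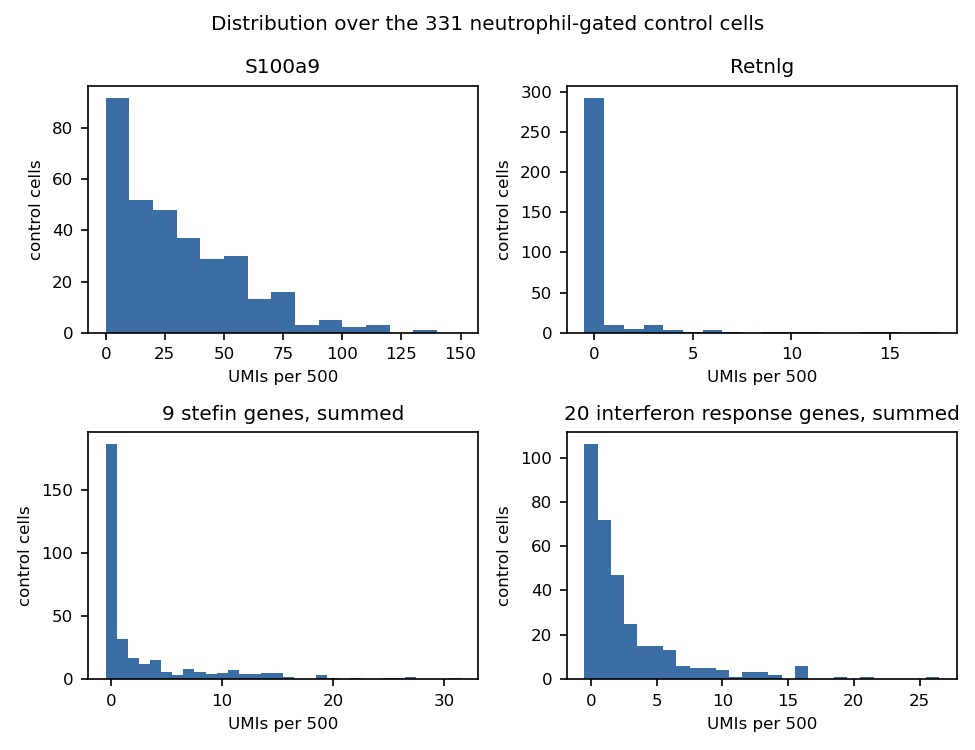
The histograms give UMIs per control neutrophil after thinning to 500 UMIs (x axis) against the number of cells (y axis) for S100a9, Retnlg, the stefins and the interferon list. S100a9 is spread broadly around a median of 23 with 3 cells at 0, while most cells have no Retnlg and a minority has several UMIs of it.

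Over the 270 cells with up to 2000 UMIs, S100a8 and S100a9 had a Spearman rho of 0.80 across cells. Isg15 and Ifit3 had a rho of 0.44, and Ifit3 and the rest of the interferon list 0.41. Retnlg had a rho of 0.38 with S100a9 and 0.32 with Mmp8. S100a8, S100a9 and Mmp8 are gate genes, so the cells were chosen by their values. S100a9 and the interferon list had a rho of -0.16, which in counts this sparse is no finding. These cells share 1 library and a fixed total of 500 UMIs, so more of one gene leaves less for the others, and no p-value is given.

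Since Retnlg divided the cells so unevenly, the 41 cells with a UMI of it at their full depth and the 229 without were set side by side, a split chosen after its values were seen. Their median depths were 911 and 769 UMIs. The cells with Retnlg had a mean of 63.6 UMIs of S100a9 per 500 against 29.1, and 25.2 of S100a8 against 10.0. Mmp8 was found in 46.3% (30.7 to 62.6) against 8.73% (5.42 to 13.2), Mmp9 in 17.1% (7.15 to 32.1) against 0.873% (0.106 to 3.12), and Camp in 24.4% (12.4 to 40.3) against 4.37% (2.11 to 7.88). Pglyrp1 was found in 51.2% (35.1 to 67.1) against 25.8% (20.2 to 31.9), and the transcription factor Nfil3 in 12.2% against 0.873%. These genes were picked after their values were seen. Of 1950 genes with a UMI in at least 10 of the cells, 0.41% stood higher in the cells with Retnlg, with intervals that did not overlap, and 0.564% lower. Other granule genes had intervals that overlapped: Slpi was found in 53.7% against 53.7%, and Elane in 0% against 2.62%. S100a8, S100a9, Mmp8 and Mmp9 belong to the gate, which chose the cells by them, and Camp and Pglyrp1 do not.

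The transcription factors Klf6, Cebpb and Junb stood the other way. Klf6, an immediate early factor, was found in 9.76% (2.72 to 23.1) of the cells with Retnlg and 32.3% (26.3 to 38.8) of those without, Cebpb in 51.2% against 77.7%, and Junb in 61.0% against 82.5%. Ifit3 was found in 39.0% against 57.2% and Isg15 in 19.5% against 32.8%. Stfa2l3 (39.0% against 36.2%) and Csf3r (24.4% against 25.3%) were close. S100a8 and S100a9 took more of the fixed total in the cells with Retnlg, and the part of this in the lower shares was not tested.

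**Figure D4:**
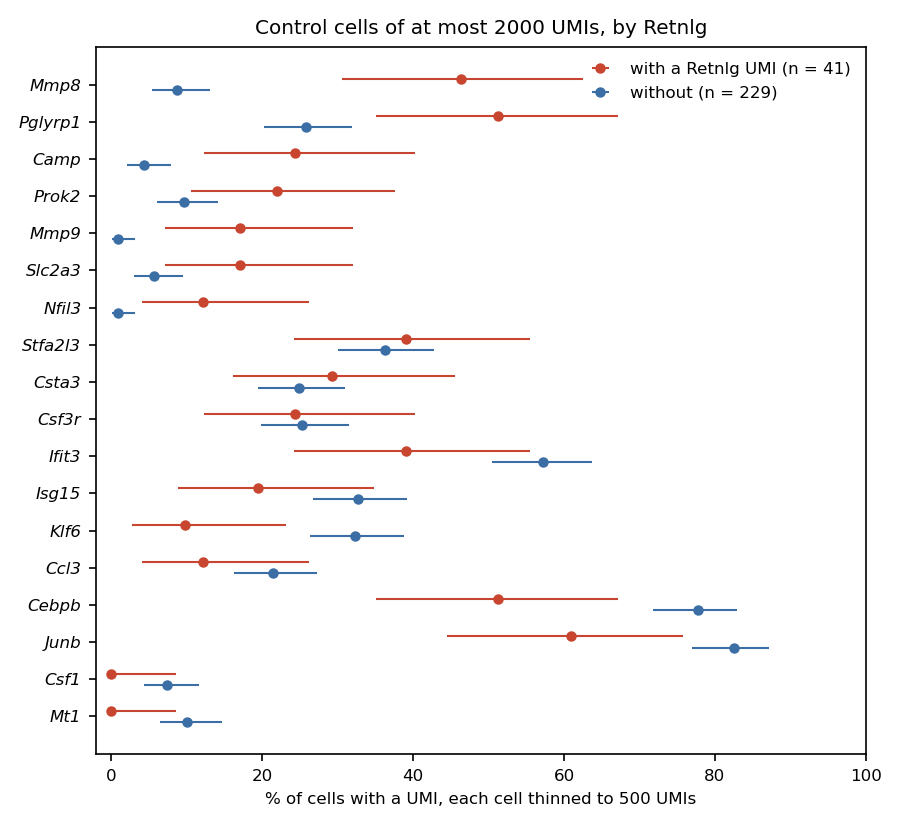
For the 41 control neutrophils with a UMI of Retnlg and the 229 without, among those with up to 2000 UMIs, the plot gives the percent of thinned cells with a UMI of each gene, with exact binomial 95% intervals as bars. Camp and the gate genes Mmp8 and Mmp9 stand higher in the cells with Retnlg and Klf6 lower, with intervals that do not overlap.

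Neutrophils were scarcer in the explosion library. They made up 331 of 21096 control barcodes with at least 200 genes, 1.57% (1.41 to 1.75), and 10 of 12450 explosion barcodes, 0.0803% (0.0385 to 0.148). The gate needs 3 genes with a UMI, which a shallow barcode is less likely to show, so both libraries were also thinned to 500 UMIs before gating. Then 292 of 21096 control barcodes (1.38%, 1.23 to 1.55) and 2 of the 6744 explosion barcodes with that many UMIs (0.0297%, 0.00359 to 0.107) passed. Thinning left out barcodes under 500 UMIs, where 7 of the 10 explosion cells lay, and cannot bring back cells that fell below 200 genes. With 1 library per group, fewer neutrophils in the exposed lungs cannot be told apart from a loss of neutrophils during dissociation, dead cell removal or cell calling. Nor can they be told apart from the lower depth of the explosion library, at which neutrophils could fall below 200 genes.

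The 10 explosion cells had 272 to 1317 UMIs, with a median of 369.5, and 7 of them had under 500. S100a9 had 23 UMIs in 1 cell, between 1 and 6 in 8 cells and 0 in the other, and S100a8 had 8 in the same cell, between 1 and 6 in 7 and 0 in 2. The cell with 23 also 3 UMIs of G0s2 and 1 of Mmp8, so that the gate genes made up 10.9% of its 320 UMIs. In the 9 others the 8 genes held between 0.532% and 3.45% of the UMIs, and over all 10 the median was 1.5%, against 7.91% in the control cells. Csf3r was seen in 4 of the 10 cells, Cxcr2 and Il1r2 in 1 each and Mmp9 in none.

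Genes outside the gate were present in several of the 10 cells. Of the 24 highest-ratio genes of the control neutrophils they had between 2 and 11 with a UMI, with a median of 4. The median was 3 and the highest value 8 in explosion classical monocytes, 2 and 7 in nonclassical ones, and the median was 0 in explosion B cells. The cell with 11 had 19 UMIs of these genes, 6.99% of its 272. Stfa2l3 had 8 UMIs in 3 cells, and it had 0 in the 210 nonclassical and 237 classical monocyte-marked barcodes of the explosion library. Slfn4 had 26 UMIs in 8 of the cells, Il1b 9 in 5, Nos2 8 in 5 and Retnlg 2 in 2. Explosion monocytes had them too: 80% of the nonclassical ones had a UMI of Slfn4, 45.2% of Il1b, 12.4% of Nos2 and 0.476% of Retnlg. The identity of the 10 cells rests on few counts in each. Monocyte markers summed to 5 UMIs in them, against 46 in the 331 control cells, a ratio of 11 in CPM (3.40 to 27.5). The gate held 4 of the 10 monocyte markers at 0 in both libraries. Dendritic cell markers had 5 UMIs, a ratio of 3.32 (1.06 to 7.92), and mast cell and basophil markers had 3 UMIs, against 1 in the control cells. The part of other cell types in the values of the 10 cells was not tested.

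Summed over the cells, 1 UMI stood for 168 CPM in the explosion neutrophils, and 4141 of 6555 genes tested had none. By a ratio whose interval excluded 1.5-fold, 2.23% of the 6555 genes were higher in the explosion cells and 0.305% lower. The gate genes together were lower, at 104 against 32714 UMIs, a CPM ratio of 0.321 (0.262 to 0.389). S100a9 had a ratio of 0.237 (0.175 to 0.313) and S100a8 of 0.389 (0.266 to 0.549), while the control cells with up to 2000 UMIs gave 0.118 and 0.209. The gate chose the cells of both libraries by these genes, so their ratios describe the choice. An explosion cell of 362 UMIs passed with 3 gate UMIs, of which 0 were S100a8 or S100a9.

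Outside the gate, Il1b was lower at a ratio of 0.402 (0.183 to 0.764), or 0.178 against the control cells with up to 2000 UMIs, Cxcl2 at 0.163 (0.0197 to 0.589) and Fth1, the ferritin heavy chain, at 0.25 (0.156 to 0.378). Lrg1, at 1434 CPM in the control cells, had 0 UMIs, which allows up to 504 CPM. The cytokine list as a sum had a ratio of 0.477 (0.305 to 0.710) and the neutrophil genes outside the gate 0.449 (0.321 to 0.613). Scgb1a1, which is no neutrophil gene, was lower too, at 0.0940 (0.0678 to 0.127). In the barcodes outside the gate, Fth1 was at 3408 CPM in the explosion and 12594 in the control library, and Scgb1a1 at 59297 and 241651. Il1b went the other way there, at 475 and 62.3 CPM. The part of such differences between whole libraries in the neutrophils' ratios was not tested.

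Interferon-stimulated genes had 16 UMIs and a ratio whose interval included 1, at 0.907 (0.517 to 1.48), and this became 0.422 (0.241 to 0.688) against the control cells with up to 2000 UMIs. Nos2 was higher, at a ratio of 4.64 (1.97 to 9.35), but 2.00 (0.846 to 4.04) against the cells with up to 2000 UMIs. Slfn4 had a ratio of 1.55 (1.01 to 2.29), which turned to 0.676 (0.440 to 0.995) against those cells. Klf6 had a ratio of 3.60 (1.99 to 6.0) and Actb, cytoplasmic actin, of 2.56 (2.05 to 3.15), or 3.42 and 3.21 against those cells. Among genes with at least 5 UMIs in the explosion cells that the rule named, Spn, the sialophorin of leukocytes, had a ratio of 67.3 (19.7 to 212), from 6 UMIs, all in 2 cells, and it was found in 41.9% of explosion nonclassical monocytes. Mitochondrial rRNA held 5.96% of the explosion cells' UMIs and 0.974% of the control cells'. In the other barcodes it held 3.55% in the explosion and 0.675% in the control library, so this difference was not limited to neutrophils. The part of mitochondrial rRNA in the differences above was not tested.

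**Figure D5:**
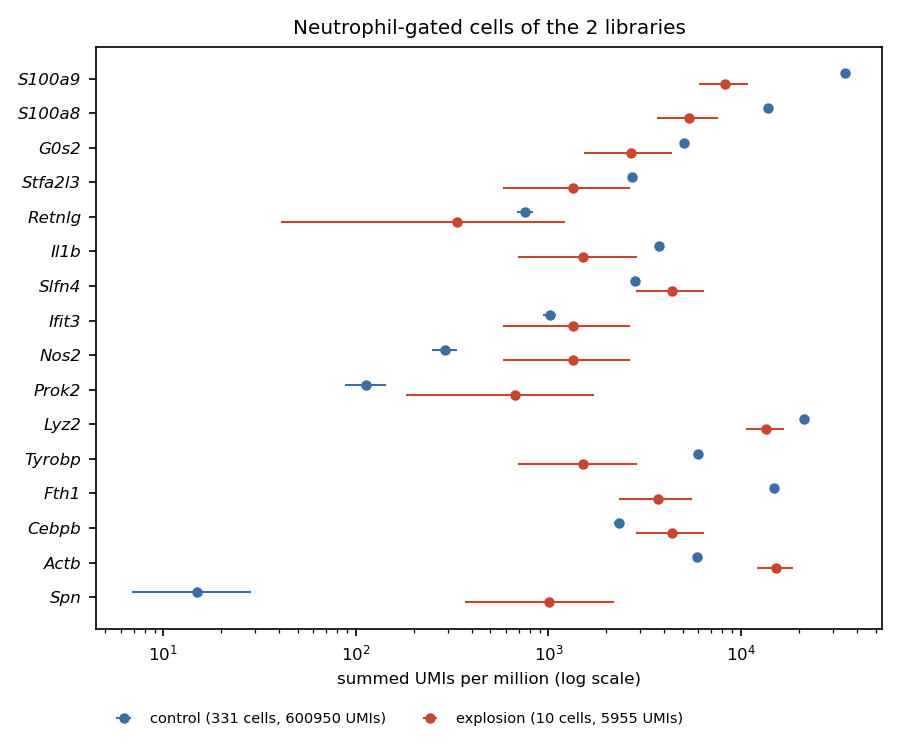
Points give the CPM (x axis, log scale) of 16 genes in the 331 control and the 10 explosion neutrophils, and bars are exact Poisson 95% intervals, which cover counting error only. The gate genes S100a9, S100a8 and G0s2, whose levels describe the gate's choice, lie lower in the explosion cells. Nos2, Prok2, Actb and Spn lie higher, and the explosion intervals are wide, with 5955 UMIs in all.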

How the data were processed

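Lung cells of 1 control and 1 explosion library were analysed from the deposited matrices, whose values are unnormalized whole UMI counts. Per the file headers, cellranger 7.1.0 made them. The submitters' processing notes list Cell Ranger 6.1.1, bcl2fastq 2.20, rn6 and mRatBN7.2, and give none of them a role. No annotation is named in the sources used here.

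The 331 control and 10 explosion cells, the 39 gene lists and the comparison sets were chosen with earlier results of these data known. Of 384 names in the lists 380 were found among 42172 genes. The files list Stfa2l3 and Csta3 under LOC names, which a RefSeq table paired with these symbols by gene number. The promoter table is RefSeq's, assembly GRCr8, and was used for sequences only.

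UMIs were summed per set and given as CPM, and ratios have exact conditional Poisson intervals. Shares have exact Clopper-Pearson intervals. List counts used genes with a mean of at least 20 CPM or, between libraries, at least 10 UMIs, with 0.5 counts added. Doublets were called with Scrublet in scanpy 1.11.5, at a rate of 0.8% per 1000 cells, and kept. Python 3.11.15, numpy 2.4.6, pandas 2.3.3 and scipy 1.17.1 were used. The ratios and their intervals were tested on simulated data. Alternatives changed the gate, removed doublets, other-type cells or cells over 2000 UMIs (the last chosen after seeing the data), set a minimum of 500 UMIs, or averaged over barcodes.

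Genes were named by rule: the 24 highest ratios over other control barcodes, with at least 50 UMIs and a UMI in 10% of cells; up to 3 genes of highest CPM per list; up to 8 per direction between libraries; and the 10 of highest variance over mean. The values of 2 list genes are not reported here, although they stayed in the counts. Other list genes named were chosen after their values were seen.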

Additional observations from a re-analysis of the deposited data

How the results depend on the processing

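The control share of 1.57% was 1.02% with at least 4 gate genes, 1.14% without cells that held 3 markers of another type, 1.28% without cells over 2000 UMIs and 1.38% after thinning to 500 UMIs. The explosion share of 0.0803% was 0.0241% with at least 4 gate genes and 0.0297% after thinning. Other settings for the 2 shares moved them by less than their counting intervals. Among log2 ratios of control neutrophils over other control barcodes, Pax5 changed sign to -0.23 without cells that held 3 markers of another type and to -1.02 as a mean over barcodes, C1qc to 0.35 and, without cells over 2000 UMIs, 0.29, Cx3cr1 to -0.53 with at least 4 gate genes, and Itga2b to -1.07 as a mean over barcodes. Of 1128 such ratios over all settings 489 moved beyond their counting intervals and 6 changed sign. Between the libraries 58 of 1267 gene ratios moved beyond theirs and 79 of 230 list medians moved by over 0.5 on the log2 scale. Without cells over 2000 UMIs, genes at least 2-fold from the other control barcodes numbered 1426 higher and 1210 lower, against 751 and 123, and from nonclassical monocytes 928 and 1417, against 407 and 356; the cause was not tested. No paired analysis was possible because each group had 1 library. With 10 explosion cells and 5955 UMIs, depth limits every comparison between the libraries.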
